A study of Mus musculus with 45 samples.

Results

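H19, Igf2 and 8 further imprinted genes (Igf2r, Cdkn1c, Dlk1, Meg3, Peg3, Mest, Plagl1 and Grb10) were followed through primary tumors, implanted scaffolds, lungs and spleens of mice carrying sister breast cancer lines. The set was chosen on a measured value, since H19 was far higher in 4T1 tumors than elsewhere, and it holds 10 of the 55367 gene symbols in the count table. The other 9 genes are known imprinted genes. The contrasts of 4T1 tumors with other samples are therefore given for these genes as a description with no test, while the differences among the other samples did not enter that choice, in which their low H19 served as the reference.

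An imprinted gene is transcribed mainly from the copy inherited from one parent, because DNA methylation laid down in the egg or sperm marks the copies differently at an imprinting control region. Many imprinted genes act on growth of the fetus and placenta: several that are transcribed from the paternal copy, such as Igf2, promote it, and several transcribed from the maternal copy, such as Igf2r and Cdkn1c, restrain it. H19 and Igf2 lie side by side and share enhancers, which the control region between them directs to H19 on the maternal copy and to Igf2 on the paternal copy. H19 RNA is abundant in fetal tissue and low in most adult tissues other than skeletal muscle. The counts do not separate the parental copies, so imprinting itself was not measured.

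The study compared female BALB/c mice 14 days after tumor cells were placed in the mammary fat pad with healthy controls that received no tumor cells. The 67NR, 4T07 and 4T1 lines come from the same mouse mammary tumor, and in the study's account 67NR does not spread, 4T07 spreads without forming overt metastases and 4T1 forms metastases. All mice, the controls included, carried porous polycaprolactone scaffolds under the skin, which fill with host tissue. Each of 15 groups held 3 libraries: scaffold, lung and spleen from control, 67NR, 4T07 and 4T1 mice, and the primary tumors of the 3 lines. The labels give the lines by name only, each tumor grew from 1 cultured line, and a tumor library mixes tumor cells with host cells. The labels do not tie a tissue to a mouse, so p-values measure only the spread between these libraries.

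Library totals ranged from 3491888 to 8175380 counts, and the detection floor used here, 3 counts, corresponded to 0.367 to 0.859 CPM. CPM scales a gene's counts to a common library total of 10 to the power of 6, and fold changes are from edgeR. Defining markers fitted the labelled tissue in most groups: 4 lung epithelial genes summed to 23568 to 31725 CPM in the lungs of control, 67NR and 4T1 mice. The 3 lungs of 4T07 mice stood apart, with 5064 to 13053 CPM of those genes, 11.3 to 15.2 CPM of the spleen stroma genes Tlx1 and Nkx2-5 (at most 1.72 in the other 9 lungs) and 242 to 322 CPM of 4 pancreatic enzyme genes (at most 23.7 in the others). Because all 3 libraries of that group were alike in this, none of its comparisons could be repeated without them. Replicate 1 of the 4T07 scaffolds held 4.77 CPM of the spleen stroma genes and replicate 1 of the 4T07 tumors 4.42 CPM. In the tumors, 6 epithelial genes summed to 18.3 to 30.2 CPM in 67NR, 165 to 226 in 4T07 and 988 to 1102 in 4T1, so the 67NR tumors held little epithelial RNA. Lower RNA of a gene in a tissue can mean fewer cells of a type or less RNA per cell, and these cannot be told apart here.

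The sequences that bear on these results are those of the small RNAs carried inside H19 and of the promoters of Dlk1 and Meg3, neighbours that differed between tumors in opposite directions. H19 lies on chromosome 7 and is annotated as a long noncoding RNA whose exon holds the hairpin of miR-675. Its mature arms, from RefSeq with build GRCm38.p6, are at chr7:142577112-142577133 and chr7:142577078-142577099 on the minus strand, and capitals mark the seed, bases 2 to 8, which pairs with targets.
mmu-miR-675-5p: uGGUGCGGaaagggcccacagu
mmu-miR-675-3p: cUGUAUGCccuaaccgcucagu
The arms have different seeds, and no other of the 1738 mature mouse miRNAs in the table shares either of them. The libraries were made from polyadenylated RNA, so they report the H19 transcript and not the processed arms, and the Mir675 entry was at 0 in all 45 libraries.

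Dlk1 and Meg3 lie on chromosome 12, where Dlk1 is transcribed from the paternal copy and Meg3 from the maternal copy. The 250 bases before each start, at chr12:109452573-109452822 and chr12:109540746-109540995 on the plus strand of GRCm38.p6, are shown with CpG, the dinucleotide that DNA methylation marks, in capitals.
Dlk1 promoter: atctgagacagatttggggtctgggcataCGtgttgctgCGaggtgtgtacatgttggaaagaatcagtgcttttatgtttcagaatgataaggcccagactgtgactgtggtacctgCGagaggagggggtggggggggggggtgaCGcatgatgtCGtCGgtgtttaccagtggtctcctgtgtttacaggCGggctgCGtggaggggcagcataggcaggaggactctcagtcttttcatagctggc
Meg3 promoter: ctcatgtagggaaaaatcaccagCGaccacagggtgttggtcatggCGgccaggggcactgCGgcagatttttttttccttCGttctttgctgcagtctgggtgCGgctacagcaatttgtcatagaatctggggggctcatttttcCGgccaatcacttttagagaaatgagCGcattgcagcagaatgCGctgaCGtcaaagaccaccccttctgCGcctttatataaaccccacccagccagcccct
The window before Dlk1 holds 8 CpG and that before Meg3 holds 10, against a median of 6 over 32851 mouse promoters of the same length. The Meg3 window shown holds the cyclic AMP response element TGACGTCA once, a motif that reads the same on both strands, and the Dlk1 window does not. Meg3 has 2 promoter entries, and the motif occurs in 1 of them. The motif is present in 508 of the 32851 promoters, or 1.55%, and among the 8 members with a promoter entry it also occurs before Peg3. A match is a description of these letters only. H19 and Cdkn1c had no entry.

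H19 RNA was at 1667, 1377 and 1561 CPM in the 3 primary tumors of 4T1. It was at 6.82, 5.62 and 7.34 CPM in the 4T07 tumors and at 2.69, 1.68 and 9.60 CPM in the 67NR tumors. No library of another group reached a level near the 4T1 tumors, the next being a 4T1 scaffold at 51.5 CPM. As a description of the values the set was chosen on, 4T1 exceeded 67NR by 8.17 (SE 0.40) and 4T07 by 7.92 (SE 0.39) on the log2 scale. The first of these rested in part on 67NR tumor replicate 3 and was 9.21 without it. That library also carried the most skeletal muscle RNA of the 67NR tumors, with 6 muscle genes summing to 18.0, 3.64 and 283 CPM in replicates 1 to 3. The same sum was 117, 20.7 and 406 CPM in 4T1 tumor replicates 1 to 3, and its part in the H19 values was not tested.

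**Figure D1:**
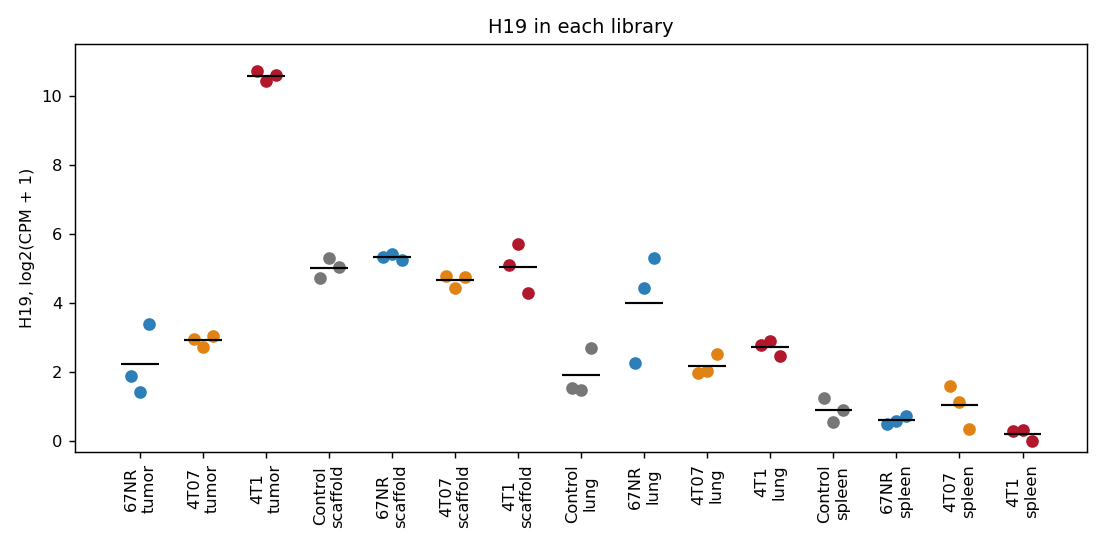
H19 level in each of the 45 libraries on the log2(CPM + 1) scale, by tissue and by tumor line, with a line at the mean of each group's log2 values. The 3 tumors of 4T1 lie between 1377 and 1667 CPM, the 12 scaffolds between 18.7 and 51.5 CPM, and the spleens at or under 2.06 CPM.

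Between the 67NR and 4T07 tumors, both part of the reference when the set was chosen, H19 did not pass the test. The 67NR and 4T07 libraries overlapped, and the difference of 4T07 from 67NR was 0.25 ± 0.42 (SE) on the log2 scale, with an adjusted p of 0.667 by the quasi-likelihood test of edgeR, adjusted over all genes by the Benjamini-Hochberg method.

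Across tissues the 4T1 tumors stood first in H19, with a mean of 1535 ± 147 CPM (SD, n = 3), and no library of theirs overlapped the next group. The scaffolds followed, with means of 39.4 in 67NR, 34.5 in 4T1, 32.0 in control and 24.3 CPM in 4T07 mice, and neighbours in this order overlapped. Lungs and the tumors of 67NR and 4T07 lay lower, with means of 21.1 CPM in 67NR lungs and 3.07 to 6.60 CPM in the others, and these neighbours overlapped as well. Spleens were lowest, from a mean of 1.18 CPM in 4T07 to 0.162 CPM in 4T1 spleens, and only the 4T1 spleens did not overlap the group above them. The 5 genes whose level followed that of H19 most closely over the 15 group means, on the log2(CPM + 1) scale and among 14980 genes, were Moxd1 (Pearson r = 0.938), Bmp1 (0.908), Neurl1a (0.908), Gpr135 (0.902) and Cacul1 (0.899). Moxd1, which encodes a monooxygenase-like protein, was at 85.2 ± 1.74 CPM in 4T1 tumors, 4.55 ± 1.01 in 4T07 tumors and 1.39 ± 0.508 in 67NR tumors. Bmp1, a protease that processes procollagen, was at 155 ± 20.6, 46.9 ± 6.63 and 28.5 ± 8.00 CPM in the same order (SD, n = 3 each). These group means share libraries and the high 4T1 point, so the correlations are descriptions without a test.

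Igf2, which encodes insulin-like growth factor 2, was not measurable. The table lists 1 count for it, in 4T07 lung replicate 1, and 0 in the other 44 libraries, so the gene never passed the filter of more than 10 counts and had no test. A count of 0 allows up to 3 counts, which is 0.549 to 0.648 CPM in the 4T1 tumors. The table has further entries that accompany Igf2: Mir483 and Gm49394 were at 0 in every library, and Igf2os, an antisense RNA, had 24 counts in 12 libraries. How reads shared by overlapping genes were counted is not given in the sources used here, so an Igf2 entry at 0 does not show that Igf2 RNA was absent. The ratio of H19 to Igf2 therefore cannot be given for the 4T1 tumors.

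The primary tumors of 4T07 and 67NR differed in 6 of the 9 members tested, against 28.9% of all 20508 genes (17.1% higher and 11.8% lower in 4T07). Called here means an adjusted p under 0.05 and a change over 2-fold. Meg3, Plagl1, Cdkn1c and Grb10 were higher in 4T07 tumors, and Dlk1 and Mest were lower. The members had a median log2 difference of 0.92, and all genes tested one of 0.16.

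**Figure D2:**
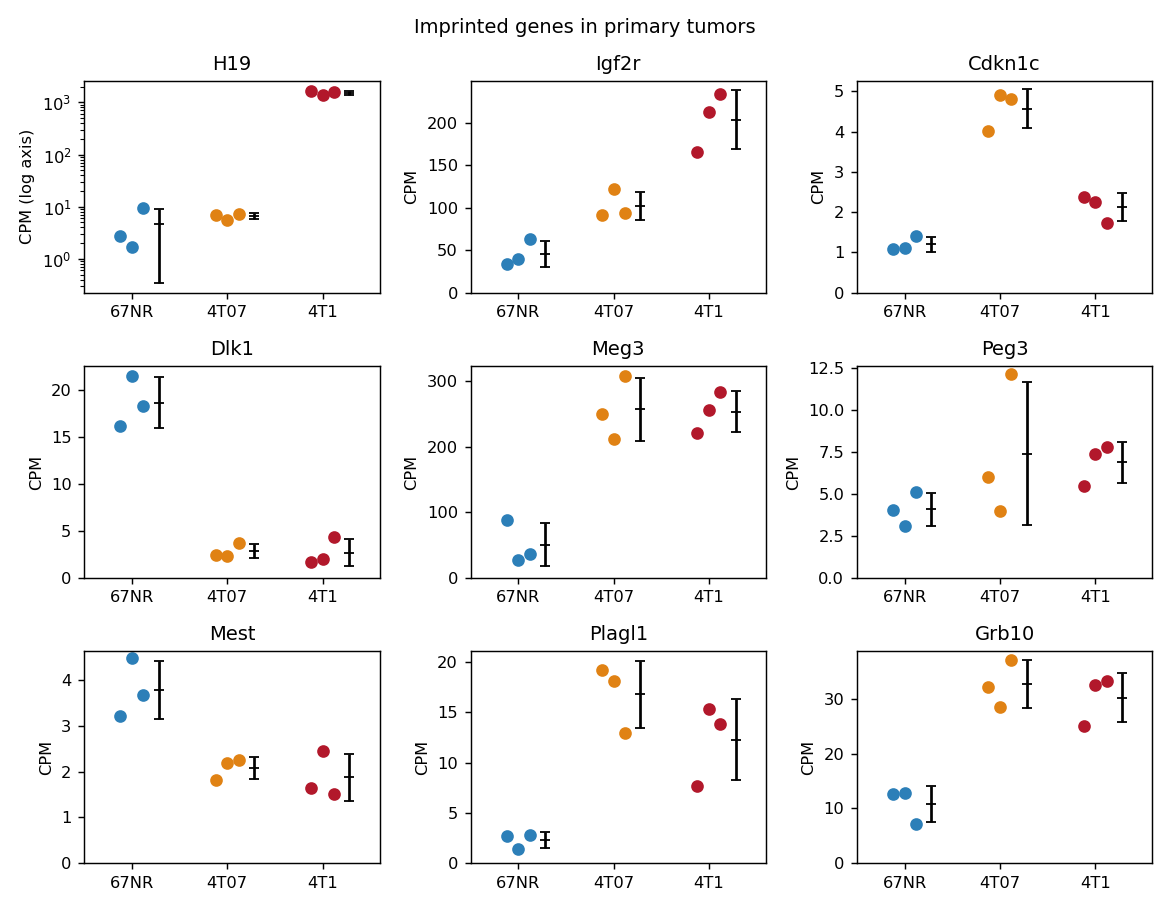
Level of 9 members in the 9 primary tumors (CPM, with a log axis for H19), where points are libraries and bars are the mean ± SD of 3. Dlk1 lies at 16.1 to 21.5 CPM in 67NR against 1.65 to 4.32 CPM in the other lines, and Meg3, Plagl1 and Grb10 are lower in 67NR than in both other lines.

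Dlk1 encodes a membrane protein with EGF-like repeats that holds precursor cells, such as preadipocytes, undifferentiated. It was at 16.1, 21.5 and 18.3 CPM in 67NR tumors, at 2.41, 2.36 and 3.67 CPM in 4T07 tumors and at 1.65, 2.05 and 4.32 CPM in 4T1 tumors. All 67NR libraries lay above all others. The fold difference was 8.01 lower in 4T07 than in 67NR (log2 -3.00 ± 0.36, adjusted p = 1.01e-05, edgeR).

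Meg3, a long noncoding RNA from the maternal copy of the same domain, went the other way. It was at 88.4, 27.4 and 36.4 CPM in 67NR tumors, 251, 212 and 309 CPM in 4T07 tumors and 221, 256 and 283 CPM in 4T1 tumors. The groups of 67NR and 4T07 did not overlap, and 4T07 was 4.32-fold higher (log2 2.11 ± 0.31, adjusted p = 6.98e-05, edgeR). The difference was 2.73 on the log2 scale without 67NR tumor replicate 1, the library with the most Meg3 in its group. The annotation places Rtl1, Mir770 and Mir1906-1 over Meg3, and since the strand setting of the counting is not given, reads from overlapping genes cannot be told apart.

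Other transcripts of the Dlk1 to Dio3 domain were measured with it. Rian, a noncoding RNA that hosts small nucleolar RNAs and miRNAs, was at 6.99, 5.60 and 7.34 CPM in 67NR and at 24.1, 15.4 and 20.9 CPM in 4T07 tumors, a 2.54-fold rise (adjusted p = 0.000682, edgeR). Mirg, a miRNA host, rose too, from 1.61, 0.280 and 0.847 CPM to 8.23, 5.62 and 7.34 CPM (adjusted p = 0.000355, edgeR). Rian was 2.72-fold and Mirg 4.76-fold higher in 4T1 than in 67NR tumors. Of the paternally expressed genes of the domain, Dlk1 alone was called. Dio3, which encodes the deiodinase that inactivates thyroid hormone, was at or under 3.89 CPM in all 9 tumors, and its difference of 4T07 from 67NR was 1.26 ± 0.70 on the log2 scale (adjusted p = 0.161, edgeR), with the sign opposite to that of Dlk1. Rtl1, a paternally expressed gene derived from a retrotransposon, held 1 count or fewer in each 67NR tumor and was not called (adjusted p = 0.168, edgeR).

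Plagl1 encodes a zinc finger factor that binds several imprinted loci and restrains growth. It was at 2.69, 1.40 and 2.82 CPM in 67NR tumors, 19.3, 18.1 and 13.0 CPM in 4T07 tumors and 7.68, 15.4 and 13.8 CPM in 4T1 tumors. It was 6.12-fold higher in 4T07 than in 67NR (log2 2.61 ± 0.36, adjusted p = 3.87e-05, edgeR). Grb10, an adaptor that dampens signalling from the insulin and IGF1 receptors, was at 12.6, 12.9 and 7.06 CPM in 67NR, 32.3, 28.5 and 37.3 CPM in 4T07 and 25.1, 32.6 and 33.2 CPM in 4T1 tumors. Its 2.52-fold rise in 4T07 (log2 1.34 ± 0.25) had an adjusted p of 0.000507 by edgeR. Neither gene overlapped between 67NR and 4T07.

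Cdkn1c encodes an inhibitor of cyclin-dependent kinases. Its RNA was scarce in every tumor, at 1.08, 1.12 and 1.41 CPM in 67NR, 4.01, 4.90 and 4.80 CPM in 4T07 and 2.38, 2.25 and 1.73 CPM in 4T1. Within that low range 4T07 was 3.16-fold higher than 67NR (log2 1.66 ± 0.42, adjusted p = 0.00498, edgeR), and the groups did not overlap. The 67NR values rest on 4, 4 and 5 counts. Mest, which encodes a protein of the hydrolase fold family, was at 3.23, 4.48 and 3.67 CPM in 67NR, 1.81, 2.18 and 2.26 CPM in 4T07 and 1.65, 2.46 and 1.51 CPM in 4T1. Its 2.16-fold lower level in 4T07 had an adjusted p of 0.036 by edgeR and of 0.0774 by DESeq2, and it lost the call in 5 settings that left out 1 of the 67NR or 4T07 tumors, with log2 differences of -0.95 to -1.21. The other 5 members called kept their calls without 4T07 tumor replicate 1, the library with spleen stroma RNA.

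Igf2r encodes the receptor that takes IGF2 into the cell for degradation and sorts lysosomal enzymes. It was at 34.1, 39.2 and 62.7 CPM in 67NR tumors, 91.1, 121 and 94.0 CPM in 4T07 tumors and 165, 212 and 234 CPM in 4T1 tumors. The groups formed steps without overlap. The difference of 4T07 from 67NR was 0.92 ± 0.23 on the log2 scale, with an adjusted p of 0.00435 by edgeR but a change under 2-fold, so it was not called. Airn, the noncoding RNA that overlaps Igf2r in antisense and silences the paternal copy, was at 6.45, 1.40 and 3.11 CPM in 67NR and 14.2, 16.7 and 17.8 CPM in 4T07 tumors, a 3.73-fold rise (adjusted p = 0.00109, edgeR). Since the strand setting of the counting is not given, reads of Airn and Igf2r cannot be told apart where these genes overlap. Peg3, a zinc finger gene transcribed from the paternal copy, was at 4.03, 3.08 and 5.08 CPM in 67NR and 6.02, 3.99 and 12.1 CPM in 4T07, which overlapped (adjusted p = 0.275, edgeR).

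RNA of fibroblast marker genes moved with several of these genes, and the libraries do not show whether host or tumor cells carried it. The sum of 8 fibroblast genes was 1032 to 1195 CPM in 67NR tumors, 4937 to 7264 CPM in 4T07 tumors and 5962 to 9116 CPM in 4T1 tumors, so Meg3, Plagl1, Grb10 and Igf2r were low where it was low. All 8 fibroblast genes were detected in the tumors, and the part of fibroblast or epithelial RNA in the imprinted gene values was not tested. Scaffolds, at 8605 to 17787 CPM of the fibroblast sum, held the highest single values of Meg3 and Igf2r. Lungs, at 604 to 1806 CPM of the fibroblast sum, held more Plagl1 than scaffolds, with medians of 55.4 and 20.0 CPM over 12 libraries each, and their Grb10 medians were 48.1 and 55.9 CPM. Among the tumors, Dlk1 and Mest had their highest means in 67NR.

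The 4T1 tumors are described beside the others without a test. Relative to 67NR, the log2 difference was -3.01 for Dlk1, 2.14 for Meg3, 2.20 for Plagl1, 1.28 for Grb10, 1.97 for Igf2r and 0.62 for Cdkn1c. Relative to 4T07, it was 1.04 for Igf2r, -1.04 for Cdkn1c and between -0.41 and 0.03 for Dlk1, Meg3, Peg3, Mest, Plagl1 and Grb10, whose libraries overlapped between the lines. The 4T1 and 4T07 tumor libraries did not overlap for Igf2r and Cdkn1c, nor for H19, on which the set was chosen. The share of all genes without overlap was not computed, so this is not read as a trait of the members. Comparisons with 67NR share the same 67NR tumors, and the values stand side by side for that reason only.

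Among 51 other imprinted genes that were tested in the tumors, 18 rose and 8 fell in 4T07 relative to 67NR, where 28.9% of all genes were called. Their median log2 difference was 0.93 beside 0.16 for all genes. In 4T1 relative to 67NR, 18 rose and 5 fell (median 1.01 beside 0.09), where 20.7% of all genes were called. Between 4T1 and 4T07, 3 rose and 1 fell (median 0.11 beside -0.05), where 8.61% of all genes were called. Sfmbt2, which encodes a Polycomb-related protein, was at 15.1, 16.9 and 15.0 CPM in 4T07 and 20.3, 18.7 and 20.9 CPM in 4T1, against 3 counts or fewer in each 67NR tumor. Mcts2 fell 6.35-fold in 4T07 and 5.61-fold in 4T1 relative to 67NR. Dcn, which encodes decorin and is also 1 of the 8 fibroblast genes above, rose 4.24-fold in 4T07.

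Phlda2, a maternally expressed gene known to limit growth of the placenta, was also highest in the 4T1 tumors. It was at 61.1, 64.2 and 42.7 CPM in 4T1 tumors, 2.81, 2.54 and 1.98 CPM in 4T07 tumors and 0.269, 0 and 0.847 CPM in 67NR tumors, where no library held more than 3 counts. It was 23.1-fold higher in 4T1 than in 4T07 (log2 4.53 ± 0.31, adjusted p = 2.40e-07, edgeR). Phlda2 lies in the Kcnq1ot1 domain, next to the H19 domain on chromosome 7, together with Cdkn1c. Cdkn1c did not share the pattern, nor did the neighbour Osbpl5, which was at 88.2, 82.0 and 58.2 CPM in 67NR and 5.28-fold lower in 4T07 (adjusted p = 2.44e-06, edgeR). Kcnq1ot1, the noncoding RNA that silences the paternal copies of this domain, was 2.40-fold lower in 4T07, at 279, 267 and 275 CPM against 816, 311 and 549 CPM in 67NR, groups that did not overlap.

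Of 11 tested genes that neighbour H19, 3 rose and 2 fell in 4T07 relative to 67NR (median -0.30 beside 0.16 for all genes). This was 45.5% called beside 28.9% of all genes. In 4T1 relative to 67NR 4 rose, 36.4% beside 20.7% (0.83 beside 0.09). In 4T1 relative to 4T07 3 rose, 27.3% beside 8.61% (0.44 beside -0.05). They were Mrpl23 and the muscle troponin genes Tnnt3 and Tnni2. Syt8, a synaptotagmin gene of this region, was at 30.1 to 35.3 CPM in the 4T07 and 4T1 tumors alike and at 1 count or fewer in each 67NR tumor, so it did not follow H19. Mrpl23, which encodes a mitochondrial ribosomal protein, was at 1.81, 3.99 and 1.98 CPM in 4T07 and 4.15-fold lower than in 67NR (adjusted p = 0.000724, edgeR). Tnnt3, a fast muscle troponin and 1 of the 6 muscle genes, stood at 21.0, 6.35 and 42.1 CPM in 4T1 tumors, 19.2-fold above 4T07, and lost its call without 4T1 tumor replicate 3 or 4T07 tumor replicate 1 or 2 (adjusted p of 0.0607 to 0.0677, edgeR). Tnni2 was 4.10-fold higher in 4T1 than in 4T07 (adjusted p = 0.0495, edgeR). The 6 muscle genes summed to 20.7 to 406 CPM in 4T1 and 6.71 to 16.1 CPM in 4T07 tumors. The part of muscle RNA in these calls was not tested.

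Of 18 tested genes of the insulin-like growth factor axis, 9 rose and 1 fell in 4T07 relative to 67NR, or 55.6% called beside 28.9% of all genes (median 0.97 beside 0.16). In 4T1 relative to 67NR, 7 rose and 1 fell, 44.4% beside 20.7% (0.82 beside 0.09). In 4T1 relative to 4T07, 1 rose and 1 fell, 11.1% beside 8.61%, which is near the share of all genes (-0.04 beside -0.05). Igf2bp1, an RNA-binding protein that binds Igf2 and H19 RNA, was at 13.4, 6.71 and 10.4 CPM in 4T07 and at 3 counts or fewer in each 67NR tumor. Igfbp7, a secreted binding protein, was at 110, 96.3 and 75.1 CPM in 4T1 and 23.9, 30.5 and 8.47 CPM in 4T07 tumors, 4.55-fold higher in 4T1. Igfbp6, which prefers IGF2 as a ligand, was 2.82-fold lower in 4T1 than in 4T07, at 13.0, 19.9 and 8.63 CPM against 40.5, 40.1 and 40.4 CPM (adjusted p = 0.00074, edgeR).

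Of 20 tested regulators of imprints and DNA methylation, 4 rose and 0 fell in 4T07 relative to 67NR (median 0.29 beside 0.16) and 3 rose and 1 fell in 4T1 relative to 67NR (0.13 beside 0.09). The share called, 20% each time, was not above the 28.9% and 20.7% of all genes. Between 4T1 and 4T07 tumors 0 were called (-0.20 beside -0.05), where edgeR gave 5871 of all genes an unadjusted p under 0.05 and DESeq2 called 1610. Those that rose in 4T07 were Dnmt3b and Dnmt3l, of the machinery that methylates DNA, and Tet1 and Tet2, enzymes that oxidise methylated cytosine. Dnmt3l, Tet1 and Tet2 also rose in 4T1. Dnmt3l had wide standard errors, with log2 differences from 67NR of 5.42 ± 1.35 in 4T07 and 4.72 ± 1.44 in 4T1. Between 4T07 and 67NR it either stayed under a mean of 5 CPM or overlapped. Zfp57, a zinc finger protein that keeps imprints methylated, was at 1.65, 4.10 and 3.67 CPM in 4T1 and 8.06, 10.1 and 5.36 CPM in 67NR tumors, 2.88-fold lower in 4T1 (adjusted p = 0.0107, edgeR). It lost this call without 67NR tumor replicate 2 (adjusted p = 0.0576).

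Tumors were also set against scaffolds of mice with the same line. In 67NR, 8 of 9 members were called, 1 higher and 7 lower in the tumor, where 32.4% of all genes were called and 17.9% were lower. The 7 lower members include H19, whose low level in 67NR tumors served as reference when the set was chosen, so its fold is a description. Dlk1 was 2.57-fold higher in the tumor. Cdkn1c showed the widest gap, 87.2-fold lower at 1.08 to 1.41 CPM against 91.5 to 123 CPM in scaffolds (log2 -6.45 ± 0.29, adjusted p = 1.60e-13, edgeR). Plagl1 was 14.7-fold, H19 8.43-fold, Meg3 7.01-fold, Grb10 6.29-fold, Igf2r 3.61-fold and Peg3 2.47-fold lower. Without 67NR tumor replicate 3 the log2 difference of H19 was -4.15, and without replicate 1 that of Meg3 was -3.43. Mest did not pass.

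In 4T07, 2 of 9 members passed the thresholds, both lower in the tumor, where 18.8% of all genes were called and 9.50% were lower. H19 is 1 of these 2, so Cdkn1c alone is read as a call. Cdkn1c was 40.3-fold lower, at 4.01 to 4.90 CPM against 135 to 174 CPM (adjusted p = 1.60e-13, edgeR), and H19 was 4.27-fold lower. Low H19 in 4T07 tumors also served as reference when the set was chosen, so its fold against scaffolds is a description. In 4T1, given without a test for the members and with 23.7% of all genes called, H19 was 40.9-fold higher in the tumor than in the scaffold and Cdkn1c 61.9-fold lower, at 1.73 to 2.38 CPM against 92.1 to 139 CPM. Low Cdkn1c relative to scaffold was thus seen in the tumors of each line. Of 56 other imprinted genes tested, 5 were higher and 20 lower in 67NR tumors (median -0.85 beside -0.24), 4 and 9 in 4T07 tumors (-0.13 beside 0.01), and 6 and 8 in 4T1 tumors (-0.24 beside -0.02). Dio3 was among those lower in 67NR and 4T1, at 0 to 1.61 CPM and 1.84 to 3.89 CPM against 30.9 to 44.0 CPM and 23.1 to 38.4 CPM in scaffolds.

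**Figure D3:**
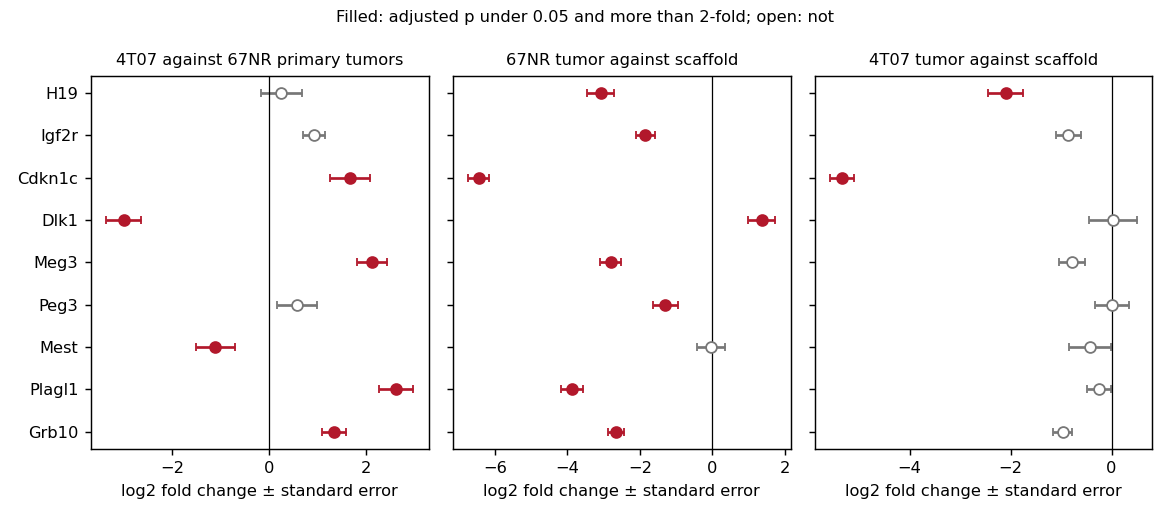
Log2 fold change of the 9 tested members in 4T07 relative to 67NR tumors, in 67NR tumors relative to 67NR scaffolds and in 4T07 tumors relative to 4T07 scaffolds, with bars of 1 SE. Filled points are members called, 6, 8 and 2 in this order, and Cdkn1c lies farthest from 0 in both comparisons with scaffolds. The 8 and the 2 include H19, whose low level in these tumors served as reference for the choice of the set.

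**Figure D4:**
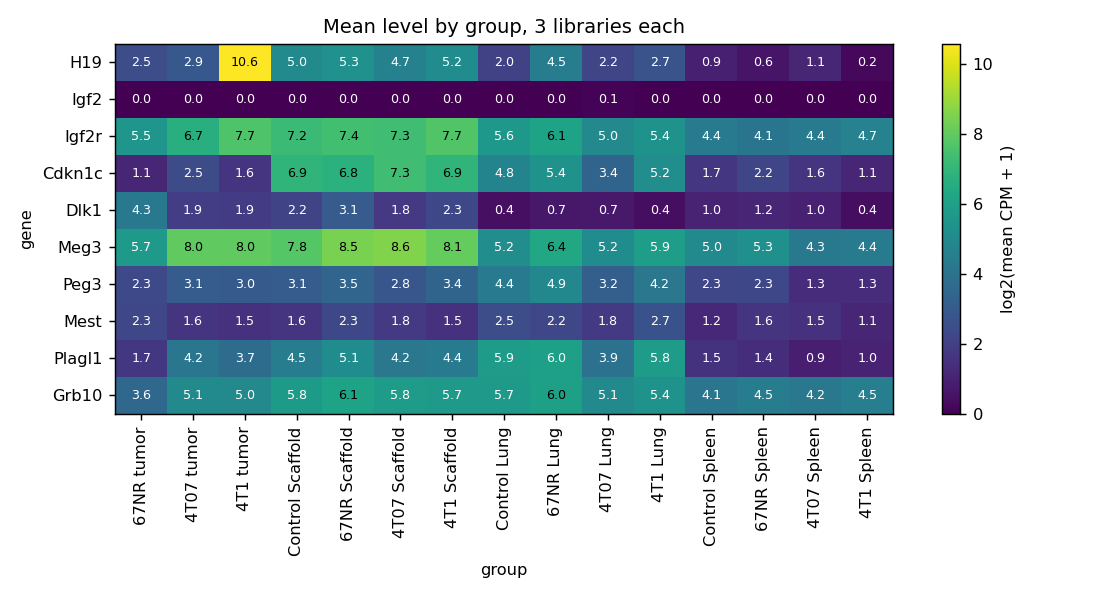
Mean level of each member in the 15 groups, as log2(CPM + 1) in colour, with a pseudocount of 1 CPM. The highest means of Cdkn1c and Meg3 are in scaffolds, those of Plagl1 and Peg3 in lungs other than those of 4T07 mice, and that of H19 in the 4T1 tumors, while Igf2 stays at the bottom of the scale in every group.

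The control tissues give the levels of these genes in mice without a tumor. The scaffold among them is an implant filled with host tissue and not a normal organ. Control scaffolds and lungs differed in 8 of 9 members, against 30.0% of all genes. H19 was at 25.6, 38.5 and 31.8 CPM in scaffolds and at 1.92, 1.80 and 5.50 CPM in lungs, 11.8-fold higher in scaffolds (adjusted p = 6.09e-07, edgeR). Meg3 was 7.20-fold, Cdkn1c 5.31-fold and Igf2r 3.48-fold higher in scaffolds, and Dlk1 was called higher as well, at 2.73 to 4.25 CPM against 3 counts or fewer in each control lung. Plagl1, Peg3 and Mest were lower in scaffolds than in lungs: Plagl1 by 2.33-fold at 13.4 to 25.3 CPM against 53.7 to 61.3 CPM, Peg3 by 2.34-fold, and Mest by 2.03-fold (adjusted p = 0.045 by edgeR and 0.0832 by DESeq2), a call lost in 6 of 9 settings that left out 1 library. Without control lung replicate 3, which held the most H19 and Meg3, the log2 differences between scaffold and lung were 4.28 for H19 and 3.46 for Meg3, in place of 3.56 and 2.85. Grb10 did not pass, at 42.8 to 60.0 CPM in scaffolds and 48.9 to 56.8 CPM in lungs.

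Control spleens were compared with both other control tissues. Scaffolds were higher than spleens in 8 of 9 members (31.5% of all genes were called), and lungs were higher than spleens in 7 of 9 (36.8% of all genes). Cdkn1c was 60.0-fold higher in scaffolds and 11.3-fold higher in lungs than in spleens, which held 3.69, 1.62 and 1.29 CPM. Without control spleen replicate 1 these differences were larger, at 6.56 and 4.15 on the log2 scale. Plagl1 was 28.8-fold higher in lungs than in spleens, and H19 38.3-fold higher in scaffolds than in spleens. The H19 difference of lung from spleen, 3.24-fold, lost its call without control lung replicate 3 (log2 0.98, adjusted p = 0.102) or control spleen replicate 2 (1.40, adjusted p = 0.0611). Of the same comparison, Igf2r fell under 2-fold without control spleen replicate 3 (0.99), and Mest moved from 1.85 to 2.59 without that library. Mest between scaffold and spleen, and Dlk1 and Meg3 between lung and spleen, did not pass. Of 53 other imprinted genes, 7 were higher and 13 lower in scaffold than lung (median -0.18 beside 0 for all genes), 15 and 2 in scaffold than spleen (0.22 beside -0.06), and 19 and 1 in lung than spleen (0.83 beside -0.05).

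In the scaffolds, no member was called in 67NR, 4T07 or 4T1 mice relative to controls or between 4T1 and 4T07, where the share of all genes called was 0%, 7.44%, 0.0226% and 1.00%. Called in scaffolds, lungs and spleens means an adjusted p under 0.10 and a change over 2-fold, by edgeR. An unadjusted p under 0.05 was given by edgeR to 626, 5656, 2682 and 3338 of 22156 genes, and DESeq2 called 1, 1418, 64 and 290. H19 was at 25.6, 38.5 and 31.8 CPM in control scaffolds, 39.5, 41.6 and 37.2 in 67NR, 26.3, 20.6 and 26.1 in 4T07 and 33.5, 51.5 and 18.7 in 4T1, so the 4T1 scaffolds overlapped every other group. The difference of 4T1 from control scaffolds in H19 was -0.02 ± 0.24 on the log2 scale.

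Meg3 came nearest to a call in scaffolds, at 331, 423 and 396 CPM in 4T07 against 132, 228 and 297 CPM in controls (log2 0.68 ± 0.22, adjusted p = 0.0544, edgeR), a change under 2-fold without overlap. Of 53 other imprinted genes, 1 rose and 3 fell in 4T07 scaffolds (median 0.04 beside 0.04 for all genes) and 0 were called in 67NR and in 4T1 scaffolds. Dio3 fell 3.32-fold in 4T07 scaffolds, at 13.2, 14.0 and 13.0 CPM against 38.6, 45.3 and 37.0 CPM, and Commd1 fell 3.56-fold. Gnas, which encodes the stimulatory G protein subunit, rose 2.67-fold, at 88.3, 89.6 and 105 CPM against 28.3, 33.3 and 34.6 CPM (adjusted p = 0.00068, edgeR). Between 4T1 and 4T07 scaffolds 3 rose and 1 fell, with Dio3, Commd1 and Gnas called in the reverse direction, and these 3 lost the call when only those groups entered the fit (adjusted p of 0.111 to 0.172).

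In the lungs of 67NR mice, H19 and Meg3 were called higher than in control lungs, 2 of 9 members beside 4.25% of all genes called and 2.52% higher. H19 was at 3.83, 20.6 and 38.9 CPM in 67NR lungs and at 1.92, 1.80 and 5.50 CPM in control lungs, a 6.38-fold difference (log2 2.67 ± 0.53, adjusted p = 0.00485, edgeR). The groups overlapped, since 67NR lung replicate 1 lay within the control range. The 6 muscle genes summed to 5.94, 47.4 and 140 CPM in 67NR lungs, the same order as H19, and to 19.5, 6.31 and 6.80 CPM in control lungs, where the order was not that of H19. The part of muscle RNA in the H19 difference was not tested. Leaving out 67NR lung replicates 2 and 3, a setting chosen after the data had been seen, removes the libraries with the most H19 and leaves 1 library in that group, so the log2 difference of 0.20 that remains follows from the choice. Without control lung replicate 3 it was 3.39, and without 67NR lung replicate 3 it was 1.90 (adjusted p = 0.0542).

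Meg3 was at 77.4, 83.8 and 81.3 CPM in 67NR lungs and at 19.9, 25.6 and 59.7 CPM in control lungs, 2.15-fold higher without overlap (log2 1.10 ± 0.25, adjusted p = 0.0105, edgeR). It fell under 2-fold without control lung replicate 1 (0.84) or 2 (0.93) and rose to 1.71 without replicate 3. With 67NR lung replicate 1 as the only library of its group, the setting chosen after the data had been seen, the log2 difference was 1.04. No call is read from 1 library. Of 54 other imprinted genes 0 rose and 1 fell in these lungs (median 0.00 beside 0.03 for all genes), which was Commd1.

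**Figure D5:**
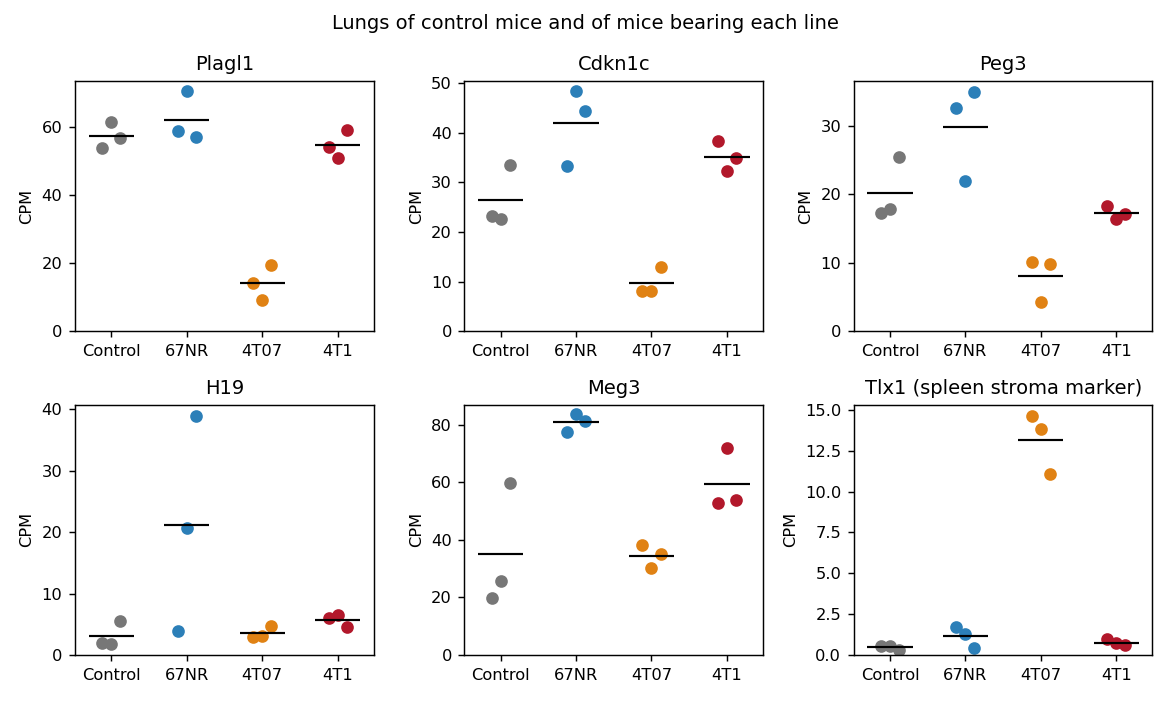
Levels of Plagl1, Cdkn1c, Peg3, H19, Meg3 and the spleen stroma gene Tlx1 (CPM) in the 12 lungs by group, where points are libraries and lines are group means. H19 spreads from 3.83 to 38.9 CPM in 67NR lungs, while Plagl1, Cdkn1c and Peg3 are low and Tlx1 is high in all 3 lungs of 4T07 mice.

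In the lungs of 4T07 mice, Cdkn1c, Peg3 and Plagl1 fell, 3 of 9 members beside 29.0% of all genes called and 13.7% lower. Plagl1 was at 14.2, 9.29 and 19.3 CPM against 53.7, 61.3 and 56.8 CPM in control lungs, 3.85-fold lower (log2 -1.94 ± 0.20, adjusted p = 8.47e-08, edgeR). Cdkn1c was at 8.04, 8.05 and 13.0 CPM against 23.2, 22.5 and 33.5 CPM, 2.61-fold lower (adjusted p = 3.20e-05, edgeR), and Peg3 was at 10.2, 4.34 and 9.76 CPM against 17.3, 17.9 and 25.4 CPM, 2.39-fold lower (adjusted p = 0.000364, edgeR). None of the 3 overlapped with the controls, and Peg3 fell under 2-fold without 4T07 lung replicate 2 (-0.96). These are the lungs with low lung epithelial genes and with RNA of spleen stroma and pancreas. Their 11.3 to 15.2 CPM of spleen stroma genes stood beside 13.5 to 19.2 CPM in the spleens of 4T07 mice and 34.6 to 42.9 CPM in control spleens. In them 5 endothelial genes also summed to 694 to 1107 CPM, against 2197 to 2711 CPM in the other 9 lungs, 8 fibroblast genes to 604 to 800 CPM against 980 to 1806 CPM, and 4 red cell genes to 42612 to 56416 CPM against 11983 to 23424 CPM. Control spleens held 1.55 to 2.37 CPM of Plagl1, 1.29 to 3.69 CPM of Cdkn1c and 3.11 to 4.31 CPM of Peg3. In the 4T07 lungs 4 neutrophil genes summed to 20509 to 24166 CPM, against 211 to 269 CPM in control lungs. Their sum was 11039 to 25862 CPM in 4T1 lungs. Whether the 4T07 lung libraries hold mixed tissue or carry a wrong label cannot be told apart here. The part of either, or of neutrophil RNA, in the fall of the 3 genes was not tested.

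In the lungs of 4T1 mice, 0 of 9 members were called by edgeR beside 4.61% of all genes, with 4701 of 21937 genes at an unadjusted p under 0.05 and 779 called by DESeq2. H19 was at 5.96, 6.50 and 4.50 CPM, a difference from control lungs of 0.87 ± 0.59 on the log2 scale with overlap. Between 4T1 and 4T07 lungs, Plagl1 (3.71-fold), Cdkn1c (3.51-fold), Mest (2.09-fold) and Peg3 (2.07-fold) were higher in 4T1, 4 of 9 members beside 23.5% of all genes called and 11.6% higher. These comparisons share the 4T07 lungs with the one above. Peg3 fell under 2-fold without 4T07 lung replicate 2 (0.73) or 4T1 lung replicate 1 (0.99), and Mest reached 0.82 without 4T07 lung replicate 1 and 1.00 without 4T1 lung replicate 2, which ended its call. Of 54 other imprinted genes, 2 rose and 17 fell in 4T07 lungs relative to control (median -0.58 beside -0.01), 0 were called in 4T1 lungs (-0.12 beside -0.00), and 13 rose and 2 fell in 4T1 relative to 4T07 lungs (0.41 beside 0.04).

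In the spleens, Peg3 alone of the 9 members was called, in 4T07 mice, where 18.6% of all genes were called. It was at 1.85, 1.55 and 1.15 CPM against 3.11, 3.92 and 4.31 CPM in control spleens, 2.15-fold lower without overlap (adjusted p = 0.0939 by edgeR and 0.125 by DESeq2), and it lost the call in 9 of the 12 settings that left out 1 spleen. The 4T07 values rest on 9, 9 and 4 counts. In 4T07 spleens 4 neutrophil genes summed to 20114 to 25449 CPM, against 893 to 1553 CPM in control spleens. Their sum was 10990 to 27974 CPM in 4T1 spleens, and the part of neutrophil RNA was not tested. In the spleens of 67NR and 4T1 mice, and between 4T1 and 4T07, 0 members were called by edgeR, beside 2.26%, 19.9% and 2.33% of all genes. There 3712, 8195 and 3485 of 21128 genes had an unadjusted p under 0.05 and DESeq2 called 454, 3586 and 435. H19 was at 0.240, 0.245 and 0 CPM in 4T1 spleens, at or under 3 counts in each, so no fold is given. Of 50 other imprinted genes, 1 rose and 1 fell in 67NR, 1 rose and 6 fell in 4T07 and 3 rose and 4 fell in 4T1 spleens relative to control, with medians of -0.10, -0.32 and -0.44 beside 0.00, -0.09 and -0.10 for all genes, and 0 were called between 4T1 and 4T07 (0.07 beside 0.05).

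Whether the effect of a tumor line on a member differed between tissues was tested as an interaction in 1 fit over scaffolds, lungs and spleens, at an adjusted p under 0.10, giving 9 differences for each of 9 members. The share of all genes past this threshold was 20.6% for the 4T07 effect in scaffold minus that in lung, 16.7% for scaffold minus spleen and 22.0% for lung minus spleen. For 4T1 the shares were 1.05%, 15.2% and 16.8%, and for 67NR 0.00375%, 0.00750% and 0.0263%. Members past it numbered 4, 1 and 4 for 4T07, 0, 2 and 2 for 4T1 and 0 in each case for 67NR. Plagl1 and Cdkn1c fell in 4T07 lungs and not in 4T07 scaffolds, and the differences between those effects, 1.66 and 1.78 on the log2 scale, passed (adjusted p = 6.06e-05 and 0.00036, edgeR).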

How the data were processed

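RNA was sequenced from 45 mouse libraries in 15 groups of 3, prepared by the authors as polyadenylated 3′ tag libraries with molecular identifiers. The authors deposited a table of whole-number counts per gene symbol, without normalization; per the labels' processing notes reads were trimmed with Trim Galore 0.5.0, aligned with STAR 2.6.0 and counted with featureCounts. The genome build, annotation, strand setting and use of the identifiers are not given in the sources used here. Its 55487 lines include 120 that repeat a symbol, which were summed.

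Each tissue was fitted with all its groups in edgeR 4.0.16 (R 4.3.3) with TMM factors, genes with more than 10 counts and the quasi-likelihood test, adjusted by Benjamini-Hochberg over all genes. Control tissues, and tumors with scaffolds, were fitted separately. Standard errors are the log2 difference divided by the square root of F. Alternatives were DESeq2 1.42.0, its size factors, fits of just the compared groups, each library left out, no filter on counts, and a minimum of 10 counts per library. Leaving out both 67NR lungs with muscle genes, and the 4T07 lungs, was added after seeing the data. The steps were tested on simulated data. No 2 libraries of a group agreed within sampling noise (smallest chi-square per degree of freedom 3.88 over 45 pairs).

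The members and gene lists were chosen with earlier results of these data known. Named beside the members are listed genes that were called without overlap at a mean of 5 CPM or more, the 3 largest in each direction for tumors and the 2 largest elsewhere where they stand beside a member's result. Airn, Asb4, Commd1, Dcn, Dnmt3b, Dnmt3l, Kcnq1ot1, Mirg, Rian, Tet1, Tet2 and Tnni2 were named after their values were seen.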

Additional observations from a re-analysis of the deposited data

Results flagged for a closer look

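The effect of a tumor line on a member differed between tissues in 13 of 81 tests, which used 1 edgeR fit over scaffolds, lungs and spleens and Benjamini-Hochberg adjustment over all genes at 0.10. Each value is a difference of log2 fold changes relative to control mice, and the comparisons share those controls. Groups of 3 are too small for a check of single outlying libraries.

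For 4T07 mice, the effect in scaffold minus that in lung was 1.78 for Cdkn1c (adjusted p = 0.00036), 1.66 for Plagl1 (6.06e-05), 1.00 for Peg3 (0.0862) and 0.65 for Grb10 (0.0473), by edgeR. The effect in lung minus that in spleen was -1.46 for Cdkn1c (adjusted p = 0.0624), -0.99 for Grb10 (0.00343), -0.90 for Igf2r (0.0779) and -1.61 for Mest (0.0548). All of these involve the 3 lungs of 4T07 mice, which held spleen stroma, pancreas, red cell and neutrophil RNA, and the part of that RNA was not tested. The remaining 4T07 value, scaffold minus spleen for Meg3, was 1.25 (adjusted p = 0.0224). Spleens of 4T07 mice also held more neutrophil RNA than control spleens, and its part was not tested.

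For 4T1 mice, the effect in scaffold minus that in spleen was -0.83 for Grb10 (adjusted p = 0.021) and 1.33 for Peg3 (0.0878), and the effect in lung minus that in spleen was -0.96 for Grb10 (0.00737) and 1.13 for Meg3 (0.0445), by edgeR. Grb10 was at 21.6, 20.6 and 24.2 CPM in 4T1 spleens against 18.3, 14.8 and 16.8 CPM in control spleens, and at 40.2, 40.2 and 47.4 CPM in 4T1 lungs against 50.2, 56.8 and 48.9 CPM in control lungs. These groups did not overlap in either tissue, and neither change exceeded 2-fold. Lungs and spleens of 4T1 mice held more neutrophil RNA than those of controls, and its part in these differences was not tested.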

How the results depend on the processing

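No paired analysis was possible because the labels give no replicate numbers that tie libraries across groups. No result reversed its direction under any alternative run. Requiring at least 10 counts in every sample lowered the members called from 6 to 3 in 4T07 relative to 67NR tumors, from 23 to 10 between control tissues, from 10 to 4 between tumors and scaffolds and from 1 to 0 in spleens, where fewer members remained to be tested. The spleen count was 0 with DESeq2, 3 with DESeq2 size factors in edgeR and 3 without a count filter, and 0 to 2 when each library was left out. The H19 difference of 4T1 from 67NR tumors was 7.79 to 9.21 when each library was left out. DESeq2 size factors moved the median of all genes by less than 0.1 on the log2 scale in each comparison. Of the alternatives to member fold changes, 36 lost a call, 1 moved and 774 stayed the same. For called members, the same means that direction and side of the threshold were kept. For H19 in 4T1 tumors, which had no test, it means a shift smaller than the SD between libraries. Depth limits Dlk1 in lungs (1 to 7 counts per library), H19 and Cdkn1c in spleens (0 to 10 and 2 to 24), and Igf2 everywhere. It also limits Peg3 and Mest in spleens (1 to 21 and 2 to 11), on which their differences that involve spleens rest. Cdkn1c had 4 or 5 counts in 67NR tumors, on which its called differences from 4T07 tumors and from 67NR scaffolds rest.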

Other observations

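Asb4, an imprinted gene transcribed from the maternal copy on chromosome 6, was among the few listed genes that separated the 4T1 from the 4T07 tumors: it was 4.19-fold higher in 4T1 than in 4T07 (adjusted p = 0.000407, edgeR) and 7.99-fold higher than in 67NR. Tfpi2, in the same Peg10 region, was 2.52-fold higher in 4T1 than in 4T07 (adjusted p = 0.0329) and 4.36-fold higher in 4T07 than in 67NR (0.00626). Peg10 itself and Sgce, both transcribed from the paternal copy, were 6.50-fold and 4.36-fold higher in 4T07 than in 67NR, and neither was called between 4T1 and 4T07. These genes were named after their values were seen.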
